A study of Mus musculus with 2 samples.

Results

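The 35 genes described here encode proteins that copy DNA or divide the cell. They were taken as a fixed list of symbols from the 31053 genes counted in single B cells of the mouse colon, and all 35 were found. They fall into 17 genes of the G2 and M phases (Mki67, Top2a, Birc5, Aurkb, Cenpe, Cenpf, Cdk1, Ccna2, Ccnb1, Ccnb2, Ube2c, Cdc20, Plk1, Hmmr, Tpx2, Nusap1 and Kif11), 13 genes of S phase (Mcm2, Mcm3, Mcm4, Mcm5, Mcm6, Mcm7, Pcna, Gins2, Pclaf, Rrm1, Rrm2, Tyms and Dut) and 5 genes with broader expression (Cks1b, Cks2, Stmn1, Hmgb2 and Tubb5). The cells were B cells sorted by flow cytometry from the lamina propria, the tissue layer under the gut epithelium. All mice were female C57BL/6J. The day 14 library came from mice given 2% dextran sulfate sodium (DSS), which injures the colonic epithelium, in their water for 7 days and then left for 7 days to recover. The day 0 library came from untreated mice, as the protocols and the series design state, although the treatment tag reads DSS for both. Each day is 1 library, the sources used here do not say how many mice it holds, and so no difference between days has a replicate check or a test.

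A dividing cell copies its DNA in S phase and separates the copies in mitosis, with gaps before each step. E2F transcription factors switch on the S phase genes, and a later wave of G2/M genes is switched on through short CHR and CCAAT promoter elements before the cell divides. Most mature B cells are at rest, outside this cycle. In lymphoid tissue, germinal center B cells are known to divide fast, and plasmablasts, the precursors of antibody-secreting plasma cells, divide until they settle.

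Depth was similar on both days. The day 14 library held 4692 cells and 12317052 unique molecular identifiers (UMIs, each a captured transcript), and the day 0 library 3290 cells and 8690102 UMIs, with medians of 2242 and 2278.5 UMIs per cell. Levels are given per 1000000 UMIs (CPM), taken over genes that are neither immunoglobulin genes nor encoded in mitochondria, which had 11596323 UMIs at day 14 and 8091798 at day 0. The B lineage label matched its markers, with at least 1 of Cd79a, Cd79b, Ms4a1, Pax5 and Ebf1 in 4681 of 4692 cells at day 14 and 3288 of 3290 at day 0. The libraries shared 17 cell barcodes, of which 1 belonged to a cell described below as a G2/M-gene or S-gene cell. All intervals in parentheses are exact 95% intervals and cover counting error only.

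The G2/M genes lay in very few cells, and the S genes were spread over many. The 17 G2/M genes had 598 UMIs at day 14 and 471 at day 0, and 50% of these lay in 11 of 4692 cells and 6 of 3290 cells. The 13 S genes had 3347 UMIs at day 14 and 2487 at day 0, and 50% of these took 345 cells and 246 cells. For the 5 broadly expressed genes, with 10369 and 8489 UMIs, the same share took 846 cells at day 14 and 629 at day 0. A single cell held as many as 86 G2/M UMIs at day 14 and 68 at day 0. No G2/M gene was detected in 95.1% of cells at day 14 and 94.9% at day 0, while no S gene was detected in 60.1% and 59.7%.

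To follow the genes into cells, a cell with at least 3 different G2/M genes was called a G2/M-gene cell. A cell with at least 4 different S genes and fewer than 3 G2/M genes was called an S-gene cell, and the rest other cells. These are ranges of detection and not cell types. There were 19 G2/M-gene cells at day 14 (0.405% of cells, 0.244 to 0.632) and 12 at day 0 (0.365%, 0.189 to 0.636), a ratio of 1.11 (0.512 to 2.51). S-gene cells numbered 30 at day 14 (0.639%, 0.432 to 0.912) and 19 at day 0 (0.578%, 0.348 to 0.900), a ratio of 1.11 (0.603 to 2.08). Neither share differed between days beyond counting error. Near the G2/M limit, 7 cells at day 14 and 6 at day 0 had 2 genes, and 4 and 2 cells had 3. Near the S limit, 60 and 40 cells had 3 genes, and 12 and 6 cells had 4. G2/M-gene cells were deep, with a median of 11718 UMIs at day 14 and 12006 at day 0, against 7124 and 6268 in S-gene cells and 2233 and 2274 in other cells. Of the 1% of cells with most UMIs, 14 of 47 at day 14 and 7 of 33 at day 0 were G2/M-gene cells. Without these deepest cells the ratio of the G2/M-gene shares was 0.701 (0.161 to 3.05). When each cell was thinned to 1000 UMIs, 5 G2/M-gene and 7 S-gene cells were left at day 14, and 4 and 5 at day 0. Doublets were not removed, and their part in these deep cells was not tested.

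Most G2/M-gene cells also held S genes. At day 14, 14 of the 19 had at least 4 different S genes and 12 had at least 8, and at day 0, 9 of the 12 had at least 4 and 7 had at least 8. The remaining 5 cells at day 14 and 3 cells at day 0 had G2/M genes with 1 to 3 S genes. Of the S-gene cells, which by definition had at most 2 G2/M genes, 23 of 30 at day 14 and 11 of 19 at day 0 had none. The most complete cell at day 14 had 16 of 17 G2/M genes and 12 of 13 S genes, with 86 and 103 UMIs, and the most complete at day 0 had 15 and 13, with 61 and 160 UMIs.

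**Figure D1:**
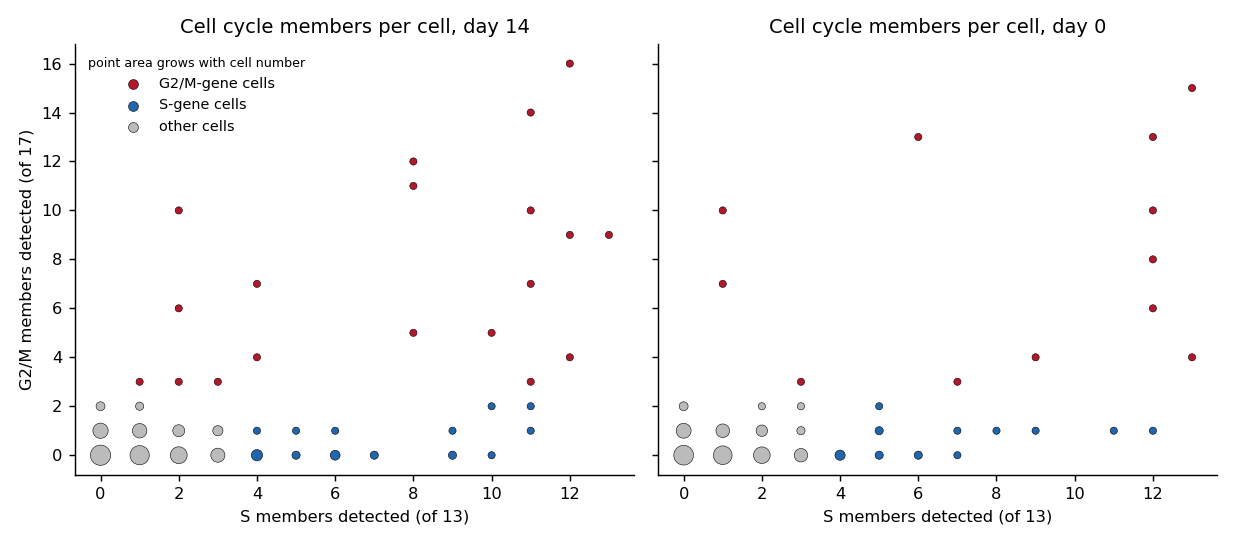
Number of G2/M genes (vertical axis) against S genes (horizontal axis) detected per cell, at day 14 (left) and day 0 (right); each point is a combination that occurs, and its area grows with the number of cells. The 19 G2/M-gene cells of day 14 and the 12 of day 0 (red) run from 1 to 13 S genes, and most cells (grey) sit near the origin.

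Single G2/M genes differed in how closely they kept to these cells. For each gene the G2/M-gene cells were defined again by at least 3 other G2/M genes, so that its own counts did not choose them. These cells held 1.83% of all UMIs at day 14 and 1.61% at day 0 under the definition by all 17 genes, counted outside immunoglobulin and mitochondrial genes. Hmmr, a microtubule-binding motility receptor, had 9 of 9 UMIs in them at day 14 and 8 of 8 at day 0. Birc5 (survivin), which guides chromosomes and cytokinesis with the kinase Aurkb, had 88.2% of its 51 UMIs in them at day 14 and 95.6% of its 45 UMIs at day 0. Ccna2 (cyclin A2) had 87.5% of 24 and 90.0% of 20 UMIs, and Ube2c, which tags mitotic cyclins for breakdown, 86.4% of 22 and 83.3% of 18. Ccnb2 (cyclin B2) had 91.7% of 24 UMIs in them at day 14 and 70.2% of 47 at day 0. Its kinase partner Cdk1 had 6 of 7 and 12 of 15 UMIs, and Cenpf, a kinetochore gene, 86.4% of 22 and 71.4% of 14. Kif11, a spindle motor, had 5 of 6 and 4 of 6 UMIs, and Tpx2, a spindle assembly factor, 8 of 12 and 4 of 6. The proliferation marker Mki67 had 71.4% of 49 UMIs in these cells at day 14 and 81.8% of 22 at day 0.

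A second set of G2/M genes reached into other cells. Top2a, the topoisomerase that untangles chromosomes, had 37.7% (30.7 to 45.2) of 183 UMIs in G2/M-gene cells at day 14 and 40.3% (31.8 to 49.3) of 129 at day 0. It was detected in 13 of 16 such cells at day 14 and 9 of 12 at day 0, but also in 94 other cells (2.02%) and 68 other cells (2.09%). Cdc20, the activator of the anaphase-promoting complex, had 34.0% of 53 UMIs in G2/M-gene cells at day 14 and 42.1% of 38 at day 0. The kinetochore motor gene Cenpe had 35.4% of 48 and 40.0% of 40, and Aurkb 42.9% of 21 and 42.9% of 14. The spindle gene Nusap1, at 52.2% of 46 UMIs at day 14 and 55.6% of 27 at day 0, lay between these and the first set. Ccnb1 (cyclin B1) lay between them at day 14, at 55.6% of 18, and within the range of the first set at day 0, at 76.2% of 21. Free RNA was not taken off these values, and its part in the UMIs of other cells was not tested.

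Among the S genes, 2 followed the G2/M pattern and the helicase genes did not. Pclaf, a PCNA-binding factor, had 144 of 185 UMIs (77.8%, 71.2 to 83.6) in G2/M-gene cells at day 14 and 121 of 132 (91.7%, 85.6 to 95.8) at day 0. Rrm2, the regulated subunit of ribonucleotide reductase, had 75.3% of 73 UMIs there at day 14 and 75% of 52 at day 0. Its partner subunit Rrm1 had 11.1% of 153 and 12.3% of 114. The 6 helicase genes Mcm2 to Mcm7 had between 9.83% and 20.9% at day 14 and between 9.87% and 23.7% at day 0. Pcna, the sliding clamp of the DNA polymerases, had 7.42% of 957 UMIs in G2/M-gene cells at day 14 and 7.55% of 702 at day 0, and was detected in 783 cells (16.7%) and 565 cells (17.2%) in all. Tyms, which makes thymidylate, had 35.7% of 42 and 38.5% of 26, and Dut, which clears dUTP, 17.8% of 365 and 26.8% of 265. Gins2, a subunit of the replicative helicase complex, had 14.9% of 47 and 24.2% of 33.

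The broadly expressed genes were split in the same way. Stmn1 (stathmin, a microtubule-destabilising protein) had 38.6% of 497 UMIs in G2/M-gene cells at day 14 and 32.3% of 406 at day 0. Cks1b, a cofactor of cyclin-dependent kinases, had 36.4% of 165 and 45.7% of 81, while its relative Cks2 had 7.56% of 357 and 10.0% of 330. The chromatin protein gene Hmgb2 had 7.58% of 5121 UMIs there at day 14 and 10.1% of 4523 at day 0, and the tubulin gene Tubb5 6.31% of 4229 and 5.46% of 3149. Hmgb2 was detected in 58.3% of cells at day 14 and 66.1% at day 0, and Tubb5 in 49.4% and 51.6%. All 35 genes at day 14 and 34 of 35 at day 0 had at least a 2-fold higher CPM in G2/M-gene cells than in other cells, against 18.0% of 7982 genes at day 14 and 20.1% of 7472 genes at day 0. The exception, the mitotic kinase gene Plk1, had a single UMI at day 0, which lay in another cell.

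**Figure D2:**
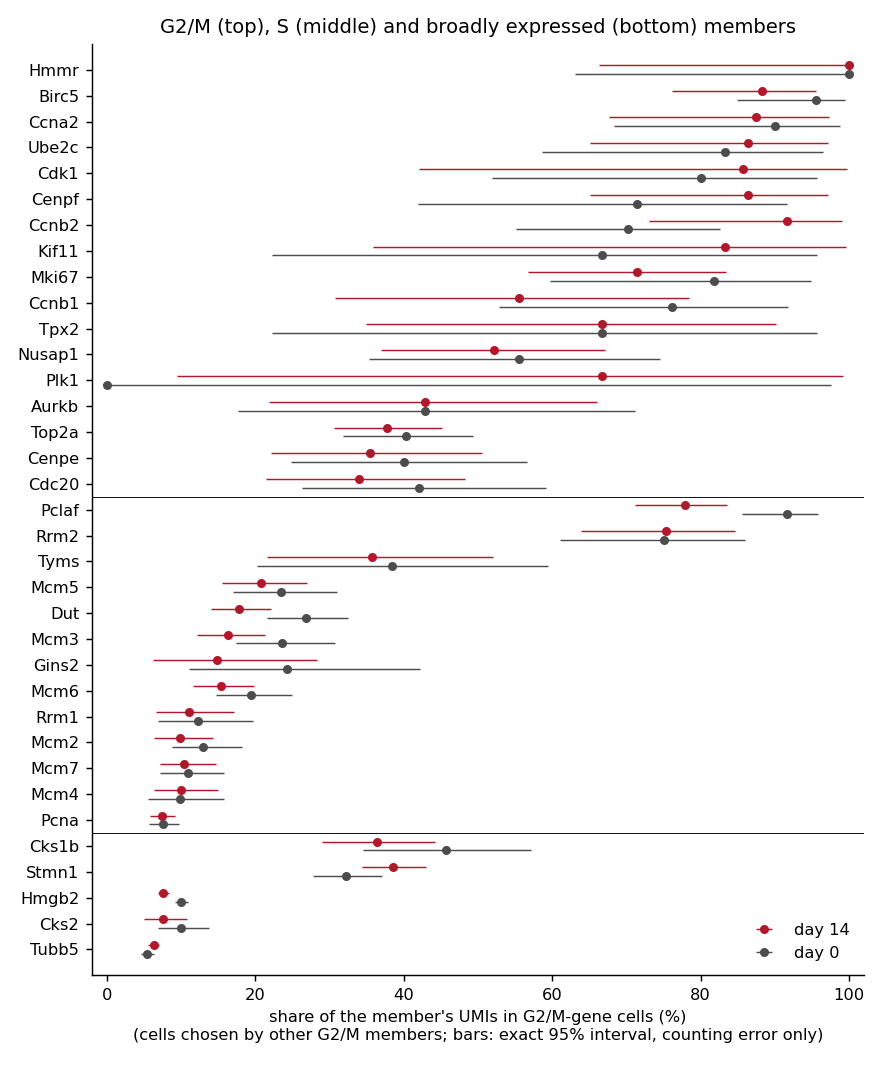
Share of each gene's UMIs that lay in G2/M-gene cells, chosen by other G2/M genes, at day 14 (red) and day 0 (grey); points are percentages and bars exact 95% intervals for counting error. Pclaf and Rrm2 lie among the G2/M genes at 75% to 91.7%, and Pcna and Tubb5 lie between 5.46% and 7.55%.

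Promoters of these genes are shown because the G2/M and S genes were found together in the same cells to different degrees. RefSeq (GRCm38.p6, the mm10 assembly) gave a promoter of 250 bases before and 50 bases after the start for 29 of the 35 genes. The CHR motif TTTGAA, searched on both strands, was in the promoters of 10 of 14 G2/M genes, 1 of 11 S genes (Mcm2) and 2 of 4 broadly expressed genes (Cks1b and Hmgb2), against 17.9% of 32851 promoters. All 10 of these G2/M promoters also held CCAAT, a pair found in 6.95% of all promoters. The CCAAT motif on its own was in 12 of 14 G2/M, 9 of 11 S and 4 of 4 broadly expressed promoters, against 37.4% of all. The E2F motif TTTNNCGC was in 6 of 11 S promoters (Tyms, Mcm3, Mcm5, Mcm6, Mcm7 and Pclaf) and 1 of 14 G2/M promoters (Cdk1), against 5.17% of all. Below are the 120 bases before the start of 4 G2/M genes and then of 2 S genes, 5′ to 3′ along each gene, with matches to these motifs in capitals, where a match on the opposite strand is printed as its reverse complement.
Ccnb2: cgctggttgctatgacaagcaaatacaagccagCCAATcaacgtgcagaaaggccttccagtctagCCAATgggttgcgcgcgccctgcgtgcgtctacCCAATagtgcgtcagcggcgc
Cdk1: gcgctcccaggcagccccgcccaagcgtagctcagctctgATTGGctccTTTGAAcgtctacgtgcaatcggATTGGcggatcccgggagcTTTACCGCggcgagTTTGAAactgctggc
Ube2c: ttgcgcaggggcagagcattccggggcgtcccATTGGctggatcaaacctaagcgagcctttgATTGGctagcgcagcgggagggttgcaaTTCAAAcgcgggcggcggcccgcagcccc
Top2a: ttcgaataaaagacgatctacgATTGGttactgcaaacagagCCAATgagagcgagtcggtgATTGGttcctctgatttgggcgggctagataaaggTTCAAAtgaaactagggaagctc
Pclaf: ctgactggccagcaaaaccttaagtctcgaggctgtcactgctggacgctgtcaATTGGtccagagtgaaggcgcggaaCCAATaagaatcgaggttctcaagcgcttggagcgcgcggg
Mcm6: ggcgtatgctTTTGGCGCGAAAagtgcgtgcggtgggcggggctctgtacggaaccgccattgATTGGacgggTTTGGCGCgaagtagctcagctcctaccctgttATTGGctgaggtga
Ccnb2 lies on the minus strand at chr9:70421555-70421674, Cdk1 on the minus strand at chr10:69352913-69353032, and Ube2c on the plus strand at chr2:164769809-164769928. Top2a lies on the minus strand at chr11:99024190-99024309, Pclaf on the plus strand at chr9:65890203-65890322, and Mcm6 on the minus strand at chr1:128359706-128359825. In the Cdk1 stretch CHR matches start 71 and 15 bases before the gene start, CCAAT matches 80 and 48 bases before it and an E2F match 29 bases before it. Ccnb2 has CCAAT matches 87, 54 and 21 bases before the start, and its CHR matches lie outside this stretch. In Mcm6 the first capitals join 2 overlapping E2F matches on opposite strands, and in Pclaf the E2F match spans the gene start and so ends outside the stretch. A match describes the letters only.

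**Figure D3:**
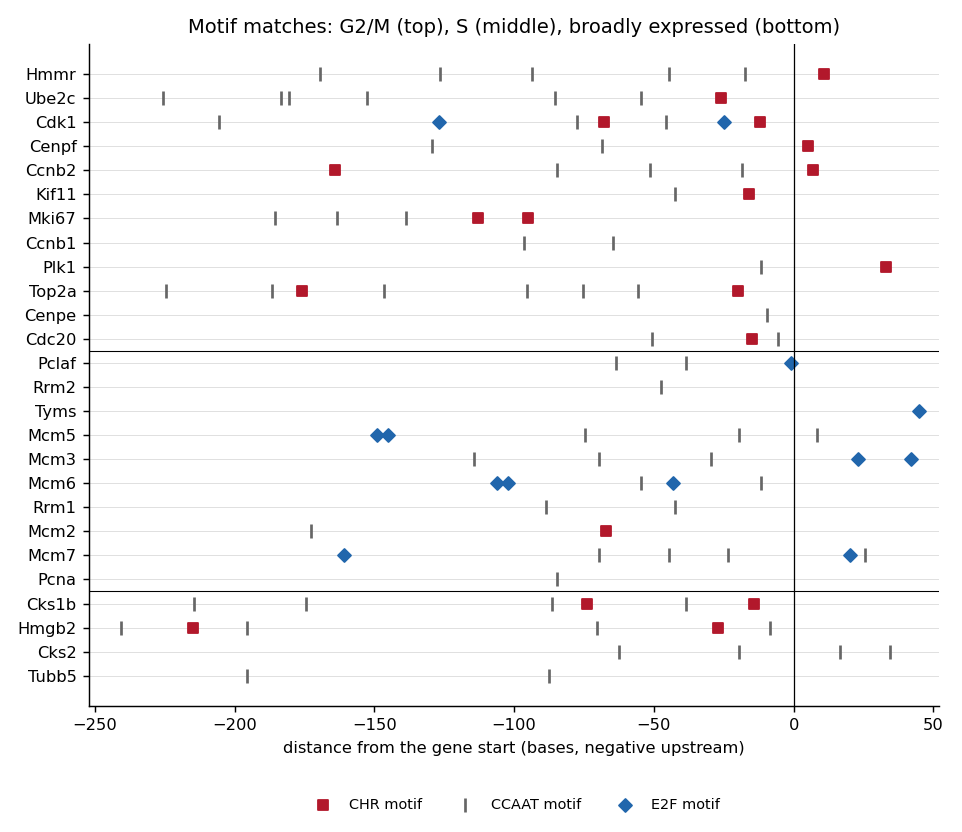
Positions of the CHR, CCAAT and E2F motif matches in the promoters of the genes with at least 1 match among the 29 matched to RefSeq, as distance from the gene start in bases; rows are grouped into G2/M (top), S (middle) and broadly expressed genes (bottom). CHR matches (red squares) are in 10 G2/M rows, 1 S row and 2 broadly expressed rows, and E2F matches (blue diamonds) in 6 S rows and 1 G2/M row.

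The S-gene cells were set apart by whether they held Pclaf or Rrm2. Of the 30 at day 14, 10 had a UMI of Pclaf or Rrm2, and 6 of these 10 had at least 2 germinal center markers (listed below), against 1 of the 20 without. At day 0, 5 of the 19 had Pclaf or Rrm2, and 5 of these 5 had the markers, against 5 of the 14 without. The cells with Pclaf or Rrm2 had a median of 9 different S genes at day 14 and 8 at day 0, and the cells without a median of 4 and 5. Pclaf and Rrm2 are S genes themselves, so the split in part set these medians. Myc, a growth regulator, had 0 UMIs in the S-gene cells with Pclaf or Rrm2 on both days, and 7 UMIs at day 14 and 2 at day 0 in those without. In the cells with Pclaf or Rrm2, the D-type cyclin gene Ccnd2 of G1 had 24 UMIs (241.3 CPM) at day 14 and 0 at day 0. In the cells without, it had 46 UMIs (362.3 CPM) at day 14 and 26 UMIs (305.8 CPM) at day 0. This split was chosen after the values were seen, and the cells with Pclaf or Rrm2 were deeper (median 9912 UMIs outside immunoglobulin and mitochondrial genes at day 14 and 6694 at day 0, against 6033 and 5726).

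Between the days, most of the 35 genes were close in level, and the cyclin gene Ccnb2 stood lower at day 14. A gene is called higher or lower here where its ratio reached 1.5-fold, which describes a size and is no test. By this limit 2 genes were higher, 3 were lower and 30 lay within, beside 1.31% higher and 4.94% lower of 8924 genes with at least 50 UMIs over both days. Over those 8924 genes the median log2 ratio was -0.09, and over the 35 genes it was -0.07. Of the 25 genes with at least 50 UMIs, 1 was higher (Mki67) and 1 lower (Ccnb2). The intervals of 27 ratios spanned 1. Without the 1% of cells with most UMIs, 6 genes were lower (Cdk1, Ccna2, Ccnb1, Ccnb2, Hmmr and Kif11), and of these only Ccnb2 had an interval below 1. Without G2/M-gene and S-gene cells also 6 were lower (Cdk1, Ccna2, Ccnb2, Ube2c, Pclaf and Kif11). Few UMIs were left there and the intervals of all 6 spanned 1, with Ccnb2 at 0.234 (0.00447 to 2.92).

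Ccnb2 (cyclin B2, ENSMUSG00000032218, mm10 chromosome 9, 70407692 to 70421547, minus strand), a partner of Cdk1 at entry into mitosis, had 24 UMIs at day 14, in 13 cells, and 47 at day 0, in 14 cells. This was 2.07 CPM (1.33 to 3.08) at day 14 against 5.81 CPM (4.27 to 7.72) at day 0, a ratio of 0.356 (0.208 to 0.595). Without the cell with most of its UMIs in each library the ratio was 0.377 (0.207 to 0.666), and without the 1% of cells with most UMIs it was 0.167 (0.0491 to 0.454). Ccnb1 (cyclin B1) had 18 UMIs at day 14 and 21 at day 0, which gave a ratio of 0.598 (0.300 to 1.18), within counting error, and 0.698 without its leading cells. Cdk1, the kinase they activate, had 7 UMIs at day 14 and 15 at day 0, which gave a ratio of 0.326 (0.112 to 0.849), and 0.349 (0.0935 to 1.12) without its leading cells. As many as 10 of the 47 Ccnb2 UMIs at day 0 lay in a single cell. The Ccnb2 ratio thus rests on few cells, and its interval does not cover the spread between them. Without the G2/M-gene and S-gene cells the Ccnb1 ratio was 0.984 (0.269 to 3.93).

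On the higher side Mki67 (ENSMUSG00000031004, mm10 chromosome 7, 135689784 to 135716361, minus strand) had 49 UMIs at day 14, in 23 cells, and 22 at day 0, in 10 cells. Its ratio was 1.55 (0.922 to 2.70), so the difference was within counting error, and without the 1% of cells with most UMIs it was 1.199 (0.435 to 3.60). Without the G2/M-gene and S-gene cells it was 4.92 (0.632 to 221.8). Plk1 had 3 UMIs at day 14 and 1 at day 0, too few to read. Cks1b had 165 UMIs at day 14 and 81 at day 0, 14.2 CPM (12.1 to 16.6) against 10.0 CPM (7.95 to 12.4). Its ratio was 1.42 (1.08 to 1.88), the only one of the 35 with an interval above 1, and under scaling by TMM or median of ratios, which set the bulk of genes level between libraries, the ratio was 1.51. The other 12 G2/M genes were within 1.5-fold, from 0.698 for Kif11 (6 UMIs on each day) to 1.40 for Tpx2 (12 and 6 UMIs), with intervals that spanned 1. Among them were Top2a (183 UMIs at day 14 and 129 at day 0, ratio 0.990, 0.786 to 1.25) and Birc5 (51 and 45, ratio 0.791, 0.519 to 1.21).

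All 13 S genes lay within 1.5-fold, with ratios from 0.760 to 1.14. Mcm2 had 234 UMIs at day 14 and 215 at day 0, which gave a ratio of 0.760 (0.628 to 0.918), and was the only S gene whose interval left 1. Its helicase partner Mcm3 had 275 UMIs at day 14 and 169 at day 0, which gave a ratio of 1.14 (0.934 to 1.38). For Pcna, with 957 and 702 UMIs, the ratio was 0.951 (0.862 to 1.05), and for Pclaf, with 185 and 132, it was 0.978 (0.778 to 1.23). The ratios of Mcm4 to Mcm7, Gins2, Rrm1, Rrm2, Tyms and Dut lay between 0.852 for Mcm7 (277 and 227 UMIs) and 1.13 for Tyms (42 and 26 UMIs). Of the broadly expressed genes, Hmgb2 had 441.6 CPM at day 14 and 559 CPM at day 0, a ratio of 0.790 (0.759 to 0.823), and Cks2 30.8 and 40.8 CPM, a ratio of 0.755 (0.648 to 0.879). Stmn1 had 42.9 CPM at day 14 and 50.2 CPM at day 0 (0.854, 0.748 to 0.976), and Tubb5 364.7 and 389.2 CPM (0.937, 0.895 to 0.982). The intervals of these 4 genes lay below 1, but under TMM scaling those of Stmn1, at 0.907 (0.794 to 1.04), and Tubb5, at 0.994 (0.949 to 1.04), spanned 1. The Stmn1 ratio moved the other way, to 0.703 (0.590 to 0.839), without G2/M-gene and S-gene cells. It was 0.724 (0.618 to 0.848) without the 1% of cells with most UMIs.

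Summed, the S genes had 288.6 CPM (278.9 to 298.6) at day 14 and 307.3 CPM (295.4 to 319.7) at day 0, a ratio of 0.939 (0.891 to 0.990). The G2/M genes had 51.6 CPM (47.5 to 55.9) at day 14 and 58.2 CPM (53.1 to 63.7) at day 0, a ratio of 0.886 (0.784 to 1.002). In other cells the G2/M sum was 20.3 CPM on both days, a ratio of 0.9995 (0.812 to 1.23). Within G2/M-gene cells it was 1695 CPM at day 14 and 2293 CPM at day 0, from 360 and 298 UMIs, which is a description only, since these genes chose the cells. In those cells the S sum was 2755 CPM at day 14 and 3910 CPM at day 0. TMM and median-of-ratios scaling, which move every log2 ratio up by 0.09, brought the S ratio to 0.997 and 0.999.

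**Figure D4:**
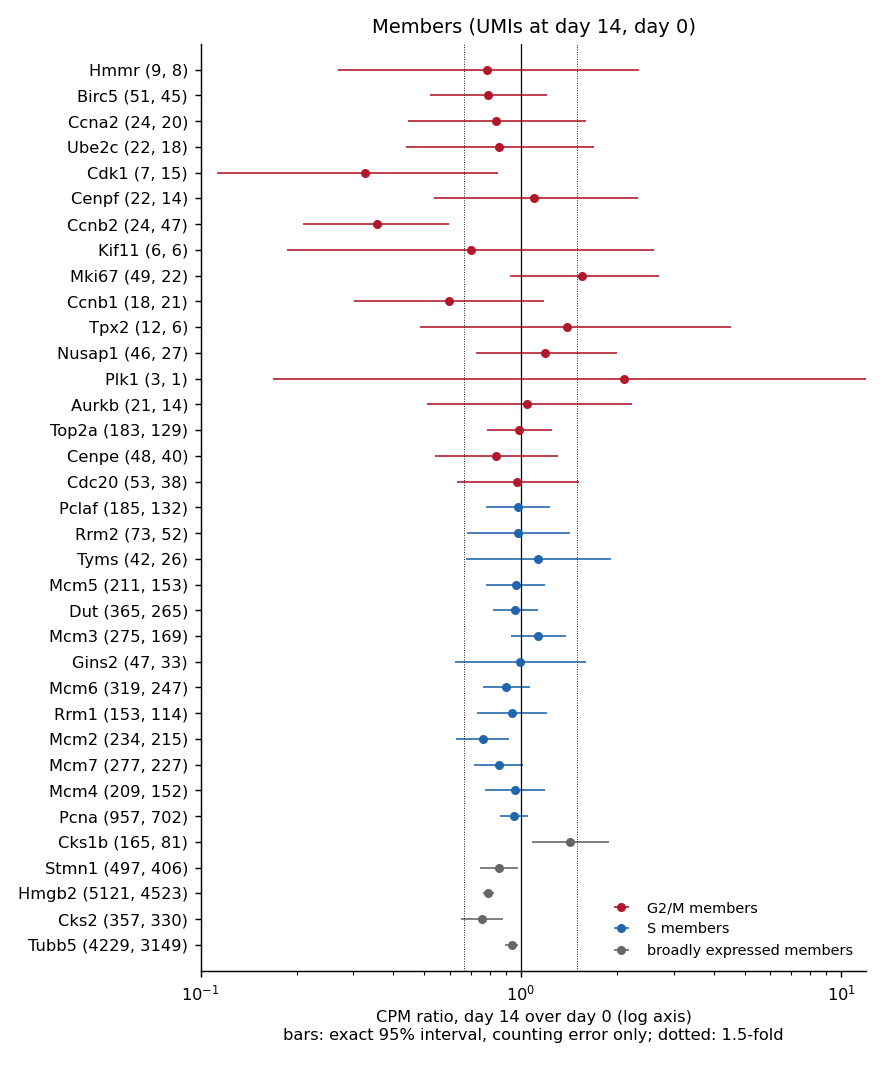
CPM ratio of day 14 over day 0 for each of the 35 genes on a log axis, with exact 95% intervals for counting error and UMIs at day 14 and day 0 beside each name; dotted lines mark 1.5-fold either way, and the bar of Plk1 runs past the right edge. Ccnb2, Cdk1 and Ccnb1 lie left of the lower line, and the 13 S genes (blue) lie between the lines.

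G2/M-gene cells had a switched heavy chain class more often than the other cells, and less clearly so against other cells of high depth. A cell was given a heavy chain class where that class had at least 3 UMIs and over 50% of the constant region UMIs. Of the 19 G2/M-gene cells at day 14, 10 were IgM/IgD, 6 IgA and 3 IgG, and of the 12 at day 0, 5 were IgM/IgD, 4 IgA and 3 IgG. IgA was thus the class of 31.6% (12.6 to 56.6) of G2/M-gene cells at day 14 and 33.3% (9.93 to 65.1) at day 0, against 1.14% (0.856 to 1.49) and 2.52% (2.01 to 3.11) of other cells. At day 14, 5 of the 6 IgA cells had at least 8 of the 10 plasma cell markers listed below, and at day 0, 1 of the 4 did. IgG was the class of 15.8% (3.38 to 39.6) at day 14 and 25% (5.49 to 57.2) at day 0, against 0.538% and 0.736% of other cells. No class could be given to 30.8% of other cells at day 14 and 26.9% at day 0, which were shallower. Set beside other cells at least as deep as the shallowest G2/M-gene cell, 191 at day 14 and 204 at day 0, IgA was the class of 9.95% (6.10 to 15.1) and 16.7% (11.8 to 22.5), and IgG of 4.71% (2.18 to 8.76) and 1.96% (0.537 to 4.94). The IgA intervals of G2/M-gene and deep other cells overlapped on both days, and the IgG intervals overlapped at day 14 and not at day 0. The IgM/IgD share was 52.6% (28.9 to 75.6) in G2/M-gene cells of day 14 and 41.7% (15.2 to 72.3) in those of day 0, against 82.2% (76.0 to 87.4) and 76.5% (70.0 to 82.1) in deep other cells, so that these intervals overlapped at day 0 and not at day 14. These deep cells, chosen for comparison after the values were seen, had still fewer UMIs, at a median of 5611 and 4682 outside immunoglobulin and mitochondrial genes, against 9842 and 11720 in G2/M-gene cells. S-gene cells were mostly IgM/IgD, 26 of 30 at day 14 and 12 of 19 at day 0.

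Read the other way, 6 of 62 IgA cells (9.68%, 3.64 to 19.9) were G2/M-gene cells at day 14 and 4 of 89 (4.49%, 1.24 to 11.1) at day 0. Of IgM/IgD cells, 10 of 3170 (0.315%, 0.151 to 0.579) were at day 14 and 5 of 2293 (0.218%, 0.0708 to 0.508) at day 0. Of IgG cells, 3 of 28 were on both days. The heavy chain classes IgM/IgD and IgA therefore had unlike shares of G2/M-gene cells within each library, with intervals that did not overlap. The IgA cells were deeper, at a median of 4394 UMIs at day 14 and 3868 at day 0, against 2361 and 2340 in IgM/IgD cells.

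Germinal center markers were found in most G2/M-gene cells, which at day 14 included cells with many plasma cell markers. Counted over Rgs13, Mef2b, S1pr2, Nuggc, Gcsam, Bcl6, Mybl1, Fas, Eaf2, Neil1 and Basp1, at least 2 of these 11 were detected in 14 of 19 G2/M-gene cells at day 14 (73.7%, 48.8 to 90.9) and 12 of 12 at day 0 (73.5 to 100). Of these, 8 of the 19 cells at day 14 and 11 of the 12 at day 0 had fewer than 8 of the 10 plasma cell markers listed below. In other cells the shares were 1.46% at day 14 and 3.28% at day 0, and in deep other cells 14.1% (9.53 to 19.9) and 24.5% (18.8 to 31.0), below the intervals of the G2/M-gene cells on both days. S-gene cells lay between, with 7 of 30 at day 14 and 10 of 19 at day 0. Of the 19 cells at day 14 with at least 4 of the markers, 10 were G2/M-gene cells (52.6%, 28.9 to 75.6), and of the 34 at day 0, 9 were (26.5%, 12.9 to 44.4). Among these G2/M-gene cells, 7 of the 10 at day 14 and all 9 at day 0 had fewer than 8 plasma cell markers. After thinning to 1000 UMIs, 1 of 5 G2/M-gene cells at day 14 and 1 of 4 at day 0 had the markers, against 0.304% and 1.05% of other cells. Rgs13, a signalling regulator typical of germinal center B cells, was in 7 of 19 G2/M-gene cells with 52 of 101 UMIs at day 14 and in 9 of 12 with 58 of 199 UMIs at day 0. S1pr2, which holds B cells in the follicle, was in 4 and 7 cells, with 11 of 18 and 14 of 33 UMIs.

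The zone genes of the germinal center split in these cells. The dark zone list gave Ccnd3 (cyclin D3), detected in 13 of 19 G2/M-gene cells at day 14 and 9 of 12 at day 0, with a CPM 4.26-fold and 6.65-fold that of other cells, where the intervals began at 2.65 and 4.21. Cxcr4, the chemokine receptor of the dark zone, was at 0.259-fold at day 14 and 0.505-fold at day 0, and Foxo1 at 0.675-fold and 0.571-fold. In the 8 cells of day 14 with at least 2 germinal center and fewer than 8 plasma cell markers, Cxcr4 was at 61.5 CPM and Foxo1 at 123.1 CPM, against 90.8 and 125.7 CPM in other cells. In the 11 such cells of day 0 they were at 60.4 and 77.7 CPM, against 122 and 134.9 CPM in other cells. None of the 6 light zone genes was 2-fold higher on either day: Cd83 stood at 0.231-fold at day 14 and 0.317-fold at day 0, Cd86 at 0.348-fold and 0.158-fold, and Nfkbia at 0.705-fold and 0.621-fold. Cd40 was at 0.398-fold and 1.75-fold, Myc at 0.217-fold and 0.853-fold, and Bcl2a1b at 0.432-fold and 1.28-fold. These folds pool all G2/M-gene cells. At day 14 Nfkbia was at 73.8 CPM in the same 8 cells and 431.4 CPM in the 7 cells with at least 8 plasma cell markers. Cd83 split the other way, at 258.4 and 53.9 CPM. In other cells at least as deep as the shallowest G2/M-gene cell, Nfkbia was at 370.6 CPM and Cd83 at 531.6 CPM. As many of these genes are also used outside germinal centers, the levels in other cells include those uses.

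Over all cells, the germinal center markers were lower at day 14 while the cell cycle genes mostly were not. By the 1.5-fold limit, 6 of the 9 markers with at least 50 UMIs stood lower and 3 within, beside 4.94% lower and 1.31% higher over all genes. Rgs13 had 101 UMIs at day 14 and 199 at day 0, which gave a ratio of 0.354 (0.276 to 0.452). Mef2b had a ratio of 0.435 (0.325 to 0.578), Basp1 of 0.364 (0.303 to 0.435), S1pr2 of 0.381, Nuggc of 0.373 and Fas of 0.622. Eaf2 at 0.678, Neil1 at 0.787 and Bcl6 at 1.01 lay within. Cells with at least 4 germinal center markers and fewer than 8 plasma cell markers made up 7 of the G2/M-gene cells at day 14 and 9 at day 0, and their shares of all cells stood in a ratio of 0.545 (0.173 to 1.65).

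Plasma cell markers divided the G2/M-gene cells further. The list holds the secretory genes Prdm1, Sdc1, Txndc5, Fkbp11, Edem1, Derl3, Tnfrsf17, Jchain, Xbp1 and Creld2. At least 4 of the 10 were in 8 of 19 G2/M-gene cells at day 14 and 5 of 12 at day 0, but 4 of the 5 at day 0 had only 4 or 5 markers and an immunoglobulin share of 0.349% to 1.03%. With at least 8 markers, a limit chosen after the values were seen, 7 cells remained at day 14 and 1 at day 0, and their shares of all cells stood in a ratio of 4.91 (0.631 to 221.2). The 7 cells at day 14 comprised 5 IgA, 1 IgM/IgD and 1 IgG cell, with 12.8% to 32.8% of their UMIs from immunoglobulin genes. The cell at day 0 was IgA, with 16.3%. Of all cells with at least 8 plasma cell markers, 7 of 29 were G2/M-gene cells at day 14 (24.1%, 10.3 to 43.5) and 1 of 22 at day 0 (4.55%, 0.115 to 22.8). With at least 4 markers these were 8 of 33 at day 14 (24.2%, 11.1 to 42.3) and 5 of 38 at day 0 (13.2%, 4.41 to 28.1). The intervals overlap at both limits, so a difference was not detectable at this depth.

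The 7 plasma marker cells of day 14 had lower summed G2/M levels than the germinal center marker cells of that day, which is a description, since the G2/M genes chose the cells. They held 76 G2/M UMIs (819.6 CPM) and 160 S UMIs (1726 CPM), with 3 to 9 G2/M genes in a cell. The 8 cells at day 14 with at least 2 germinal center markers and fewer than 8 plasma cell markers held 208 G2/M UMIs (2560 CPM) and 328 S UMIs (4036 CPM), and without the cell that held 86 of these G2/M UMIs the sums were 1981 and 3654 CPM. At day 0, 11 cells of this kind held 262 G2/M UMIs (2262 CPM) and 452 S UMIs (3902 CPM). The single plasma marker cell of day 0 was not lower than these, with 36 G2/M UMIs (2551 CPM) and 56 S UMIs (3969 CPM). In the plasma marker cells of day 14, Birc5 was detected in 6 of 7, Ccnb2 in 6 of 7 and Mki67 and Top2a in 5 of 7 each, while Cenpf, Tpx2, Kif11 and Plk1 had no UMI. They had no UMI of Rgs13, Gcsam, Bcl6 or Fas, and their germinal center list counts came largely from Eaf2, detected in 7 of 7 with 30 UMIs, and Basp1, in 4 of 7 with 10 UMIs. Ccnb2 had 9 UMIs in these 7 cells and 10 in the 8 germinal center marker cells of day 14, against 39 in the 11 germinal center marker cells of day 0. Sdc1 (CD138), Txndc5, Fkbp11, Edem1, Derl3, Jchain, Xbp1 and Creld2 were detected in 7 of 7, and Prdm1 in 1 of 7. These counts are a description too, since at least 8 of the plasma cell markers chose the cells.

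A last group of G2/M-gene cells held neither marker set. At day 14 these were 4 cells with 0 or 1 germinal center and 1 or 2 plasma cell markers, all IgM/IgD, with 3 to 12 G2/M genes and 1 to 13 S genes. Their immunoglobulin share was 0.490% to 1.29%. At day 0 there was no such cell, so that the share was 0.0853% (0.0232 to 0.218) at day 14 and 0% (0 to 0.112) at day 0, and 3 counts of 3290 would be 0.0912%. Top2a and Birc5 were in 4 of 4, Cenpe was in 4 of 4 with 9 UMIs, and Ccr7, which guides naive B cells, was in 4 of 4, at 312.9 CPM against 503.7 CPM in deep other cells. Of the other naive B cell genes, Ighd was at 260.7 CPM against 284.5 CPM, Cr2 at 156.4 against 73.1 and Klf2 at 156.4 against 310.6, and Fcer2a had no UMI in these 4 cells, against 109.6 CPM. Top2a, Birc5, Cenpe and Ccr7 were singled out after their values were seen. Among S-gene cells the same lack of markers was common, with 23 of 30 at day 14 (22 IgM/IgD and 1 without a class) and 9 of 19 at day 0 (7 IgM/IgD and 2 without a class).

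**Figure D5:**
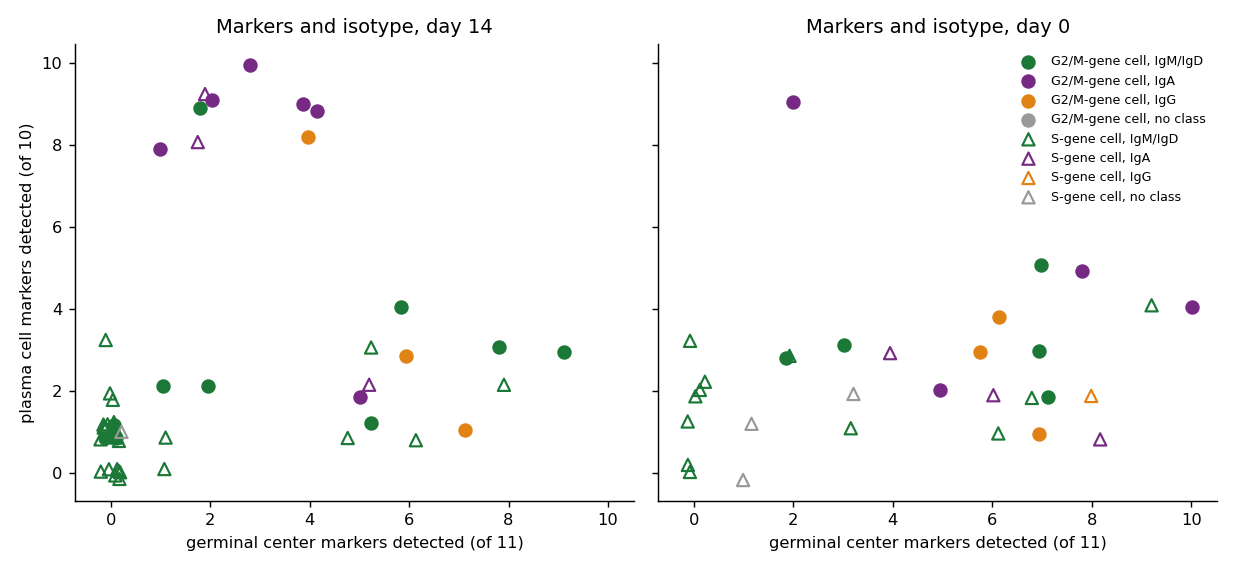
Plasma cell markers (vertical axis, of 10) against germinal center markers (horizontal axis, of 11) detected in each G2/M-gene cell (filled circles) and S-gene cell (open triangles), coloured by heavy chain class, at day 14 (left) and day 0 (right); points are shifted slightly so that overlapping cells show. At day 14, 7 circles lie at 8 or more plasma cell markers and 4 near the origin, and at day 0 a single circle lies at 9 and none near the origin.

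Over all G2/M-gene cells the median immunoglobulin share was 1.37% at day 14 (0.490% to 32.8%) and 1.07% at day 0 (0.349% to 16.3%), against 0.858% and 1.02% in other cells. In cells with at least 5 G2/M genes it was 3.26% at day 14 and 1.23% at day 0. S-gene cells had 0.758% at day 14 and 1.10% at day 0. The upper quartile was 15.8% in G2/M-gene cells of day 14 and 1.46% in those of day 0, beside 7 of 19 and 1 of 12 cells with at least 8 plasma cell markers, whose shares of all cells did not differ detectably. The naive B cell genes summed to 367.3 CPM in G2/M-gene cells at day 14 and 361.7 CPM at day 0. In other cells they were at 2175 and 2726 CPM. On either day, 0 of 5 were 2-fold higher in G2/M-gene cells. Ighd stood at 0.185-fold at day 14 and 0.0329-fold at day 0, and Klf2, a factor of resting lymphocytes, at 0.126-fold and 0.0682-fold. Not every gene of the list was low. In the 8 germinal center marker cells of day 14, Cr2 was at 110.8 CPM, against 73.1 CPM in deep other cells, and Fcer2a at 49.2 against 109.6. In the 11 such cells of day 0, Cr2 was at 25.9 CPM against 56.1, and Fcer2a at 189.9 against 158.

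Other cell cycle genes, from lists drawn up beside the 35, followed them into the same cells. Of 25 further replication genes with at least 50 UMIs, 24 at day 14 and 23 at day 0 were at least 2-fold higher in G2/M-gene cells than in other cells, beside 18.0% and 20.1% over all genes. Slbp, which binds histone mRNA, stood at 2.38-fold at day 14 and 3.05-fold at day 0, Rfc2 at 2.92-fold and 4.33-fold, Usp1 at 4.17-fold and 2.94-fold, and Cdt1, the licensing factor that is destroyed in S phase, at 0.957-fold and 1.25-fold. Of 24 further mitosis genes, 21 at day 14 and 22 at day 0 were at least 2-fold higher. H2afz, a histone variant, was at 7.28-fold at day 14 and 10.7-fold at day 0, Tuba1b at 2.91-fold and 4.49-fold, Tubb4b at 1.27-fold and 1.52-fold, and Cenpa, the centromere histone, at 1.59-fold and 1.87-fold. Of 17 genes of G1 control, 9 and 8 were at least 2-fold higher, beside the same 18.0% and 20.1%, with Cdk4 at 3.56-fold and 3.62-fold and the inhibitor Cdkn1b at 0.607-fold and 0.0980-fold. Of 10 quiescence genes, 0 were on either day, with Btg1 at 0.249-fold and 0.347-fold and Tsc22d3 at 0.246-fold and 0.287-fold.

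Between the days most genes of these lists lay within 1.5-fold, as did most of all genes, of which 1.31% were higher and 4.94% lower. Of the 25 replication genes, 0 were at least 1.5-fold higher, 1 was lower (Chaf1b, 35 UMIs at day 14 and 37 at day 0, ratio 0.660, 0.404 to 1.08) and 24 lay within. Of the 24 mitosis genes, 0 were higher, 2 were lower and 22 lay within. The lower genes were Cdc25b, a phosphatase that activates Cdk1, at 120 and 161 UMIs (0.520, 0.407 to 0.663), and Cdca8, a partner of Aurkb and Birc5, at 44 and 52 UMIs (0.590, 0.386 to 0.900). All 17 G1 control genes and all 10 quiescence genes lay within. Chaf1b, Cdc25b and Cdca8 were named after their values were seen.

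Genes outside all lists that kept to G2/M-gene cells were picked at day 0 and read at day 14. The 12 with the highest lower bound of the ratio over other cells at day 0 were Cenph, Hist1h2ap, Hist1h2an, Fscn1, Hist1h1b, Tfdp1, Lipc, Smco4, Anxa2, Ncapg2, Hist1h2ae and Ncapd2. The day 14 library entered this choice through a floor of at least 20 UMIs in each library, and not through the ratio. In it, 11 of the 12 stood between 10.3-fold and 68.3-fold in G2/M-gene cells over other cells, and Fscn1 stood at 2.50-fold (0.0605 to 15.6). Cenph, a kinetochore gene, had 13 UMIs in the 19 G2/M-gene cells and 10 in the other cells, a ratio of 68.3 (27.7 to 174.0). For Hist1h2ap, a replication-dependent histone gene, these were 69 and 65 UMIs and the ratio 55.8 (39.2 to 79.5). Ncapd2, a condensin subunit that compacts mitotic chromosomes, had 12 and 48 UMIs, at a ratio of 13.1 (6.35 to 25.1). Histone genes of this family are near-identical, so the split of reads between them is uncertain. Fscn1, an actin-bundling gene, had 1 UMI in G2/M-gene cells at day 14 and 15 in 3 cells at day 0.

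Markers of other cell types were read in the same cells. All 19 G2/M-gene cells at day 14 and all 12 at day 0 had a B lineage marker. Summed T cell markers were at 18.8 CPM in G2/M-gene cells at day 14 and 61.6 CPM at day 0, against 23.8 and 37.4 CPM in other cells, with 9 and 8 of 10 markers at 0 and no cell with 2 of them. Myeloid markers were at 310.8 and 184.7 CPM, against 259.8 and 254.9 CPM, with 7 and 9 of 10 at 0. At least 2 myeloid markers were in 3 of 19 G2/M-gene cells at day 14 (15.8%, 3.38 to 39.6) and 0 of 12 at day 0. In other cells, which were shallower, the shares were 3.68% and 4.57%. These 3 G2/M-gene cells each had 8 or 9 plasma cell markers. Epithelial markers were at 98.9 CPM in G2/M-gene cells at day 14, against 13.2 CPM in other cells, and at 30.8 CPM at day 0, against 18.7 CPM, with 5 of 8 at 0 on both days. Stromal markers were at 42.4 and 7.70 CPM, against 51.2 and 61.6 CPM, with 4 and 5 of 6 at 0. The part of these markers in the results was not tested.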

How the data were processed

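Sorted B cells were sequenced as 10x Chromium 3′ libraries, per the labels' protocols. The deposited matrices hold whole UMI counts per gene and barcode, written by Cell Ranger 3.0.1 per the file headers and aligned to mm10 per the submitters' processing notes. The deposited tables of natural log values, for which those notes name Seurat 3.0, set which barcodes are cells, and 164220 values of the 35 genes at day 14 and 115150 at day 0 matched ln(1 + scaled counts) within a relative tolerance of 0.001. Missing from them are 88 of the 4780 barcodes of day 14 and 86 of the 3376 of day 0, by a filter that no source used here states.

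All levels were computed from the counts, summed over cells per library, with 392 immunoglobulin and 13 mitochondrially encoded genes outside the CPM total. Ratios carry exact conditional, sums exact Poisson and shares exact Clopper-Pearson 95% intervals. With 1 library per group nothing was tested, and the background is formed by genes whose UMIs sum to at least 50 over the libraries. No doublet caller was run and free RNA was not taken off. The ratios between days, their intervals and the 1.5-fold calls were checked on simulated library totals, drawn independently for each gene. These totals held counting error only, for genes with at least 50 UMIs. The check therefore cannot speak to UMIs gathered in few cells, or to genes with fewer UMIs. The cell ranges, shares, thinning, heavy chain classes, marker counts and motif search were not part of this check.

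The members, lists and limits were chosen with earlier results of these data known. Named are all 35 members, the 4 members of each other list with most UMIs, and germinal center and zone genes with at least 20 UMIs. Added to these are 12 companions picked at day 0 among 8383 genes with at least 20 UMIs in each library. A few genes of the marker lists and companions are not reported here and were left out of every list and count of markers. GENCODE M21 matched 30934 of 31053 gene IDs (99.6%) and gave mm10 positions, and RefSeq gave promoters. Python 3.11.15, NumPy 2.4.6, SciPy 1.17.1, pandas 2.3.3, and for scaling factors R 4.3.3 with edgeR 4.0.16 and DESeq2 1.42.0 were used. Alternatives changed the scaling, the cell set, the depth and each limit.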

Additional observations from a re-analysis of the deposited data

Results flagged for a closer look

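The 88 barcodes of day 14 and 86 of day 0 that the log-normalized tables leave out, and which no comparison above uses, also held cell cycle UMIs. At day 14 the G2/M genes were at 27.7 CPM (13.3 to 50.9) and the S genes at 182.7 CPM (141.3 to 232.4) in them. At day 0 the G2/M genes were at 41.7 CPM (23.4 to 68.8) and the S genes at 197.5 CPM (154.2 to 249.1). These sums rest on 10 and 66 UMIs at day 14 and 15 and 71 UMIs at day 0. All lay below the sums of the cells, but only for the S genes did the intervals lie apart. The G2/M intervals overlapped those of the cells on both days. The limit for G2/M-gene cells was met by 1 of the 88 barcodes of day 14 and 1 of the 86 of day 0. At least 2 T cell markers were detected in 50 of these barcodes at day 14 and 60 at day 0, and mitochondrially encoded genes took 11.4% and 6.23% of their UMIs.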

How the results depend on the processing

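No paired analysis was possible because each day is 1 library, and for the same reason no replicate could be left out. Of the alternatives for the counts, sums and shares of cells, 66 stayed within the interval of the reported value, or within 1.5 times it for counts of genes and medians, and 12 moved. With at least 5 G2/M genes the median immunoglobulin share at day 14 was 3.26%, against 1.37%. The count of 2 higher genes was 1 with all barcodes and 1 among genes with at least 50 UMIs. The count of 3 lower genes was 6 without the 1% of cells with most UMIs, 6 without G2/M-gene and S-gene cells and 1 among genes with at least 50 UMIs. Scaling by TMM and by median of ratios gave 3 higher and 3 lower genes and a summed S ratio of 0.997 and 0.999. Over all genes TMM gave 180 higher and 305 lower, and median of ratios 182 and 295, against 117 and 441. After thinning, germinal center markers were in 1 of 5 G2/M-gene cells (a share of 20%) at day 14 and 1 of 4 (25%) at day 0. At day 0 the plasma marker share was 75% with at least 3 markers and 8.33% with at least 8. For single genes, 201 values stayed, 13 moved and 1 reversed: Plk1, at 0.703 without G2/M-gene and S-gene cells. Hmmr gave no value there, with no UMI on either day. The causes were not tested.

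The 19 G2/M-gene cells of day 14 and 12 of day 0 set the precision: shares of them have wide intervals, and genes under 50 UMIs show only large differences. Depth, cell size and doublets cannot be told apart from the number of cell cycle genes detected.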
